A study of Bos taurus with 6 samples.

Results

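The 10 genes described here are angiogenic ligands and the receptors and junction proteins of endothelial cells: VEGFA, VEGFC, ANGPT1 and ANGPT2 among the ligands, KDR, FLT1, TEK and NRP1 among the receptors and co-receptors, and PECAM1 and CDH5 at endothelial junctions. They were found by gene symbol, every probe of each symbol being taken whatever its signal. This gave 13 of the 43794 probes of a bovine oligonucleotide array, 3 for NRP1, 2 for VEGFA and 1 for each of the other genes. Of the 13 probes, 11 were bright enough to be tested, which covers 9 of the 10 genes.

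The arrays compared Holstein blastocysts made in vitro with Holstein granulosa cells. The blastocysts were day 7 embryos from abattoir oocytes of follicles of 3 to 6 mm, fertilised with mixed semen of 3 bulls and cultured in synthetic oviduct fluid. The granulosa cells came from lactating cows on day 8 to 11 after oestrus that received follicle-stimulating hormone (FSH) in 6 injections of 40 mg, and were aspirated under ultrasound 44 h after the last injection. The labels name follicles over 5 mm and put the start of FSH 36 h after an aspiration of such follicles. They were picked under a microscope and washed, with no sorting step described. Neither cell type had an untreated counterpart on the arrays, so the stage, the culture, the hormone treatment and the cell type change together. Each of the 6 arrays carried both RNAs in different dyes, with blastocyst RNA labelled by Cy3 on 3 arrays and by Cy5 on the other 3. Titles give each array a number from 1 to 3, and both arrays of a number were averaged into 1 of 3 replicates of pooled RNA, which the labels call biological. The sources used here do not give the animals or embryos behind a pool, so a p-value speaks for the spread of these 3 replicates, part of which may be technical.

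New vessels form when ligands of the vascular endothelial growth factor (VEGF) family bind tyrosine kinase receptors on endothelial cells, and angiopoietins acting through the TEK receptor stabilise or loosen those vessels. The granulosa layer of a follicle has no vessels of its own before ovulation, and the capillaries lie outside the basement membrane in the theca. In this tissue granulosa cells are known as a source of VEGF, while the receptors are described mainly on endothelial cells, and a blastocyst has no vessels yet.

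Raw median intensities of the arrays lay between 188 and 384 in Cy3 and between 176 and 209 in Cy5. A probe counted as above background on an array if its signal in that channel was over the 95th percentile of 153 negative control spots. This held for 65.6% to 76.7% of probes in blastocyst RNA and for 57.0% to 78.4% in granulosa RNA. On the log2 scale used for all levels here, which is after normalization, that percentile lay between 6.93 and 7.21. The calls were made before normalization, so some probes called above background have lower levels, down to 6.67. The labels were set against marker genes. Of 8 tested granulosa markers 3 (INHA, INHBA and GJA1) were higher in granulosa RNA, and 6 of 10 blastocyst markers, POU5F1, NANOG and KRT18 among them, were higher in blastocyst RNA. CYP19A1 (-3.23, adjusted p = 0.127), FSHR (-1.80, adjusted p = 0.134) and AMH (-1.26, adjusted p = 0.0636) did not pass. The granulosa markers NR5A2 (1.15, adjusted p = 0.105) and NR5A1 (0.29, adjusted p = 0.0636) leaned toward blastocysts without passing. Probes of NR5A2 ranged from -5.69 to 1.15. CDX2 (log2 ratio 0.26, adjusted p = 0.0745) did not pass either. The probe of FOXL2, a defining granulosa regulator, rose above background on no array of either cell type.

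ANGPT2, VEGFC and the co-receptor NRP1 were higher in granulosa RNA than in blastocyst RNA on 4 probes of these 3 genes, with mean log2 ratios of blastocyst over granulosa from -6.87 to -2.26. Blastocyst signal of these probes was at or near background, being above it on 0 to 3 of 6 arrays, so the folds given further on are set against dim signal. No member passed as higher in blastocysts. The VEGF receptor gene KDR and the angiopoietin receptor gene TEK were far brighter in granulosa RNA of replicates 1 and 2 and near the blastocyst level in replicate 3, and did not pass over the 3 replicates. VEGFA, ANGPT1, PECAM1 and CDH5 did not pass, and FLT1 was not above background. In bulk RNA such as this, fewer cells of a type and less RNA per cell cannot be told apart.

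A probe passed where limma gave a Benjamini-Hochberg adjusted p under 0.05 over all tested probes and the log2 ratio was at least 1 in size. The 4 of 11 member probes higher in granulosa stand beside 5.19% of all 35050 tested probes in that direction, and the 0 higher in blastocysts beside 4.95% (10.1% in either direction). At an unadjusted p under 0.05 there were 6 member probes, each brighter in granulosa, beside 35.6% of all tested probes in either direction. Of the 4 probes that passed, 3 (VEGFC and both of NRP1) entered the test through granulosa signal alone, so the count only describes the members. The median log2 ratio of blastocyst over granulosa was -1.63 over the 11 tested probes and -0.01 over all tested probes. Without replicate 2 no probe on the array passed, while 5 member probes had an unadjusted p under 0.05. The ratio also followed the dye, at an adjusted p under 0.05, for 3 of the 11 member probes, beside 49.9% of all tested probes.

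**Figure D1:**
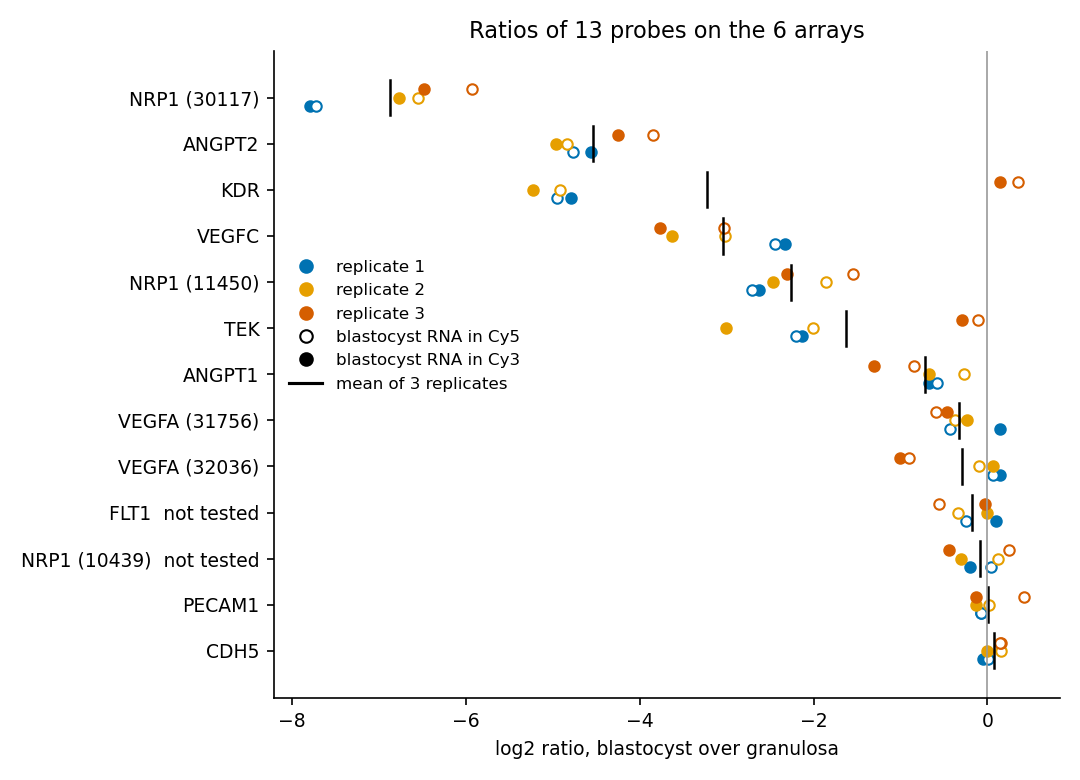
Log2 ratio of blastocyst over granulosa RNA for each of the 13 member probes (axis across, in log2 units), one point per array, with the replicate number and dye orientation marked. ANGPT2, VEGFC and 2 NRP1 probes lie left of 0 on all 6 arrays, and KDR and TEK show replicates 1 and 2 far from 0 and replicate 3 close to it.

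VEGFA, the ligand that drives vessel growth through KDR, has 2 probes. On probe EMBV3_32036 the granulosa level was 7.31, 8.09 and 8.81 in pools 1 to 3, and the blastocyst level 7.41, 8.07 and 7.86. The cell types overlapped, and the granulosa RNA of pool 3 was the brightest of the 6 values. The log2 ratios of 0.10, -0.02 and -0.95 averaged -0.29 ± 0.58 (SD, n = 3; 95% interval -1.08 to 0.50; adjusted p = 0.471). Without replicate 3 the mean was 0.04. On the dimmer probe EMBV3_31756 the ratios were -0.15, -0.30 and -0.53, with a mean of -0.33 ± 0.19 (SD, n = 3; adjusted p = 0.118). Its blastocyst levels of 7.00 to 7.10 lay at the background limit, with 3 of 6 arrays above it.

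VEGFC, a ligand best known for lymphatic vessel growth through FLT4, was higher in granulosa RNA. Granulosa levels were 9.19, 9.95 and 10.00 and blastocyst levels 6.81, 6.62 and 6.60. The cell types did not overlap, and the probe was above background on 6 of 6 granulosa arrays and 0 of 6 blastocyst arrays. The ratio averaged -3.04 ± 0.57 (SD, n = 3; adjusted p = 0.0140). Because no blastocyst array measured the probe above background, the fold is a bound, at least 7.04-fold higher in granulosa. For that bound the blastocyst side of each array was raised, where it lay lower, to the dimmest signal that still passed as above background there. The adjusted p was 0.0864 without replicate 2 and 0.0562 without replicate 3.

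KDR encodes the main signalling receptor for VEGFA, and its probe split the replicates. Granulosa levels were 12.16 and 11.85 in pools 1 and 2 and 6.82 in pool 3, and blastocyst levels were 7.29, 6.78 and 7.07. The raw granulosa intensities were 4497, 3192 and 152 on the arrays with granulosa RNA in Cy5, and 5570, 4523 and 252 on those with it in Cy3. Both dye orientations thus placed pools 1 and 2 far above pool 3, and in pool 3 neither array was above background in granulosa RNA. Granulosa RNA of pool 1 was at least 37.5-fold, and that of pool 2 at least 30.2-fold, brighter than that of pool 3. As a comparison of cell types KDR did not pass, with ratios of -4.87, -5.07 and 0.25 and a mean of -3.23 ± 3.01 (SD, n = 3; 95% interval -7.28 to 0.81; adjusted p = 0.197). Without replicate 3 the ratio was -4.97 with an adjusted p of 0.0286. With the replicate number as a block over the 6 arrays the adjusted p was 0.0315 without a dye term and 0.0528 with one. The correlation between same-numbered arrays, estimated over all tested probes and not for KDR alone, was 0 without a dye term and 0.66 with one. A correlation of 0 treats the 6 arrays as independent, although they come from 3 replicates.

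FLT1 encodes a high-affinity VEGFA receptor that also acts as a decoy. Its single probe did not rise above background on any array in either cell type and was not tested. The granulosa levels were 6.45, 6.59 and 6.79, and the blastocyst levels 6.37, 6.42 and 6.49. All 6 values lay below the background limit, so no fold is given and the level of FLT1 was not measurable with this probe.

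NRP1, a co-receptor that binds VEGF and class 3 semaphorins, had the largest ratio of the members. On probe EMBV3_30117 the granulosa levels were 14.77, 13.37 and 13.09 and the blastocyst levels 7.01, 6.71 and 6.89. All granulosa values were far above all blastocyst values, and the blastocyst channel was above background on 1 of 6 arrays. Ratios of -7.76, -6.66 and -6.20 averaged -6.87 ± 0.80 (SD, n = 3), a measured difference of 117-fold against this dim blastocyst signal (adjusted p = 0.00770). On 1 array of replicate 1 the raw granulosa signal was over 30000, near the scanner's upper limit, and leaving out that spot, and with it the replicate, gave -6.43 (adjusted p = 0.00923). Probe EMBV3_11450 gave granulosa levels of 9.74, 9.12 and 8.88 and blastocyst levels of 7.07, 6.95 and 6.95, without overlap, and 2 of 6 blastocyst arrays were above background. Its ratio was -2.26 ± 0.38 (SD, n = 3), measured as 4.77-fold (adjusted p = 0.0123). The probes agree in direction and differ in size. Averaged over both, NRP1 stood at -4.56 (adjusted p = 0.0101 over genes). The remaining probe, EMBV3_10439, stayed below background throughout, with ratios of -0.08, -0.09 and -0.09, and was not tested. Without replicate 2 the adjusted p was 0.0618 and 0.0818 for the brighter and the dimmer tested probe.

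**Figure D2:**
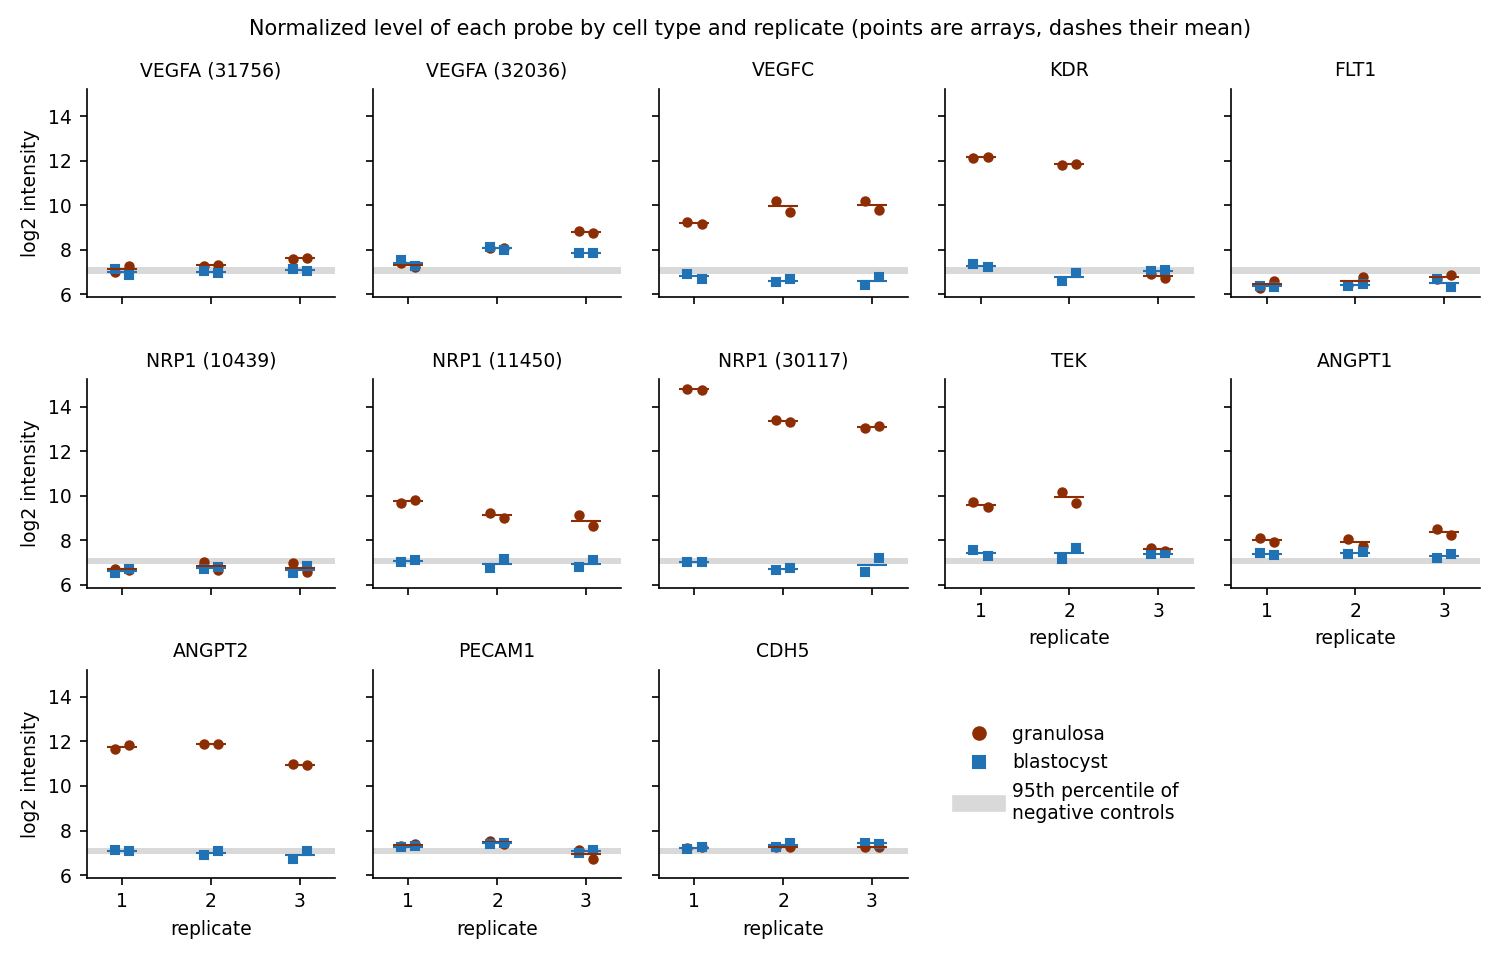
Log2 intensity of each member probe after normalization (vertical axis, log2 units) by replicate (axis across), with points for arrays, dashes for their mean, granulosa in brown and blastocyst in blue, and the background limit as a grey band. Blastocyst levels of ANGPT2, VEGFC, KDR and NRP1 lie near the band, and the granulosa level of KDR stands near 12 in replicates 1 and 2 and at the band in replicate 3.

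TEK encodes the receptor of the angiopoietins and is carried mainly by endothelial cells. Its granulosa levels were 9.60, 9.93 and 7.59, and its blastocyst levels 7.44, 7.41 and 7.39. Pools 1 and 2 stood clear of the blastocysts, while pool 3 lay next to them, and 6 of 6 arrays were above background in both cell types. Ratios of -2.17, -2.51 and -0.20 averaged -1.63 ± 1.25 (SD, n = 3; 95% interval -3.31 to 0.05; adjusted p = 0.148). Leaving out replicate 3 gave -2.34 with an adjusted p of 0.0337. With the replicate number as a block the adjusted p was 0.0171 without a dye term. There the correlation estimated over all tested probes was 0 and arrays counted as independent. The adjusted p was 0.0397 with a dye term, where that correlation was 0.66.

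Of the angiopoietins ANGPT2 passed and ANGPT1 did not. ANGPT2, which in vessels counteracts ANGPT1 and loosens endothelial contacts, had granulosa levels of 11.75, 11.88 and 10.96 and blastocyst levels of 7.09, 6.98 and 6.91. Each granulosa pool was above each blastocyst pool, and 3 of 6 blastocyst arrays were above background. The ratio was -4.53 ± 0.44 (SD, n = 3), measured as 23.2-fold higher in granulosa (adjusted p = 0.00678). It passed without replicate 1 (adjusted p = 0.0457) and without replicate 3 (0.0286), and had an adjusted p of 0.0551 without replicate 2. ANGPT1, the activating ligand of TEK, had granulosa levels of 8.02, 7.91 and 8.37 against blastocyst levels of 7.40, 7.44 and 7.30. The groups did not overlap, but the ratio was -0.72 ± 0.31 (SD, n = 3; 95% interval -1.16 to -0.28; adjusted p = 0.0613), so neither limit of the test was met. Whether the ANGPT1 and ANGPT2 ratios differ was not tested.

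PECAM1 and CDH5, the adhesion proteins of endothelial junctions, stayed close to the background limit in both cell types. PECAM1 had granulosa levels of 7.35, 7.47 and 6.93 and blastocyst levels of 7.28, 7.42 and 7.08, and neither cell type stood apart. Its ratio was 0.01 ± 0.12 (SD, n = 3; 95% interval -0.20 to 0.22; adjusted p = 0.953). In granulosa RNA PECAM1 was above background on both arrays of pools 1 and 2 and on neither of pool 3. CDH5 had granulosa levels of 7.23, 7.27 and 7.27 and blastocyst levels of 7.22, 7.34 and 7.42, again overlapping. The ratio was 0.07 ± 0.09 (SD, n = 3; 95% interval -0.11 to 0.24; adjusted p = 0.460). Both intervals leave out a 2-fold difference in probe signal, and signal this close to background may understate a ratio.

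The second question was whether the replicates differed from each other, which the dye-swapped arrays of each number allow to be tested. An F test over replicate numbers with a dye term called a probe at an adjusted p under 0.05 and a range of at least 1 on the log2 scale. By ratio, 5 of the 11 tested member probes differed (KDR, TEK, VEGFC, VEGFA EMBV3_32036 and NRP1 EMBV3_30117), beside 11.9% of all tested probes. Taken within granulosa RNA, 4 differed between pools, beside 9.49% of all. Within blastocyst RNA 0 of 11 passed, beside 1.76% of all, although 3 had an unadjusted p under 0.05, and VEGFA EMBV3_32036 had an adjusted p of 0.0105 with a range of 0.66. The test rests on the spread between both arrays of a number, taken to carry the same pools. By ratio 1 member probe differed without replicate 3 (NRP1 EMBV3_30117), 2 without replicate 1 (KDR and TEK) and 3 without background correction, and between granulosa pools 1 differed without replicate 3 and 2 without replicate 1.

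Pools differed in more than one direction. KDR had the widest range of the members, 5.34 between granulosa pools (adjusted p = 2.22e-06), lowest in pool 3. TEK followed with a range of 2.34, or 5.06-fold (adjusted p = 5.83e-05), also lowest in pool 3. NRP1 EMBV3_30117 ranged over 1.68, or 3.20-fold (adjusted p = 9.15e-05), and was highest in pool 1, with pools 2 and 3 close together. VEGFA EMBV3_32036 went the other way, with a range of 1.5, or 2.83-fold (adjusted p = 0.000164), and was highest in pool 3. Without the normalization between arrays the VEGFA range was 1.2 with an adjusted p of 0.105. VEGFC ranged over 0.81 and ANGPT2 over 0.93, under the limit of 1. Thus granulosa pool 3 had the least signal for KDR and TEK and the most for VEGFA.

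Markers of other cell types moved between the same pools. Of 16 tested endothelial markers other than the members, 4 differed between granulosa pools, EMCN, FLI1, ROBO4 and CLEC14A, and these 4 were lowest in pool 3. For this count and the marker counts below, the share over all tested probes was 9.49%. The markers are read by brightest probe, and a share over genes was not computed. EMCN, a sialomucin of capillary and venous endothelium, had levels of 10.65, 9.42 and 7.05. ROBO4, an endothelial guidance receptor, had 12.57, 12.47 and 7.64. FLI1, a transcription factor of endothelial and blood cells, had 10.06, 9.42 and 7.12. The summed endothelial signal on the log2 scale was 13.50, 13.28 and 11.31 in granulosa pools 1 to 3, beside 11.38 to 11.60 in the blastocyst RNA of the 6 arrays. In pools 1 and 2 that sum rests mostly on ROBO4, with EMCN and FLI1, so it does not stand for the whole list. Other defining endothelial markers moved less. VWF stood at 8.17, 8.14 and 7.19, CLDN5 at 7.84, 7.68 and 7.46 and ESAM at 7.26, 7.27 and 7.07, and TIE1 was above background on 1 of 6 granulosa arrays.

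Leukocyte and stromal markers differed as well. Of 8 tested leukocyte and platelet markers, 6 differed between granulosa pools. Of these 6, 5 were lowest in pool 3 and 5 were highest in pool 1. The summed level of the list was 15.38, 11.58 and 10.95. In pool 1 that sum rests mostly on LYZ, which had 15.14, 9.32 and 9.53 and was lowest in pool 2. PTPRC, the pan-leukocyte CD45 gene, had 10.87, 8.68 and 8.46, and CD3E of T cells had 8.49, 7.91 and 7.45. CD14 of monocytes, which was not among the 6 that differed, had 7.97, 7.82 and 7.17. Of 12 tested theca, stroma and pericyte markers, 6 differed and all of these 6 were lowest in pool 3, with a summed level of 16.04, 16.71 and 13.49. The collagen gene COL1A2 stood at 13.46, 14.32 and 7.57, whereas the theca steroidogenic marker CYP17A1 lay near the background limit at 7.15, 7.13 and 7.05. In the comparison of cell types 0 endothelial, 0 leukocyte and 0 stromal markers passed. At an unadjusted p under 0.05 there were 2, 2 and 4, beside 38.7% of all tested genes. With the replicate number as a block EMCN (adjusted p = 0.0191) and FLI1 (adjusted p = 0.0129) passed as higher in granulosa. They also passed with a dye term added (0.0367 and 0.0271) and without replicate 3 (0.0482 and 0.0370). Over all tested probes the block fit without a dye term took same-numbered arrays as uncorrelated, so it counts arrays rather than replicates. For the fit over genes, which gave the EMCN and FLI1 values, the estimated correlation was not recorded. Of 8 tested granulosa markers 3 differed between pools, and CYP19A1, the aromatase gene, was highest in pool 3 with levels of 10.41, 8.72 and 13.11. The summed granulosa level was 16.63, 16.39 and 16.88. It rests mostly on INHBA, INHA and GJA1, whose raw signal was over 30000 on 6, 4 and 2 arrays, near the scanner's upper limit. That sum could therefore miss a difference between pools. In the other sums COL3A1, the brightest stroma marker in pools 1 and 2, was over 30000 on 4 arrays and LYZ of leukocytes on 2. The part of these markers in the KDR, TEK and VEGFA values was not tested. Among all 3326 probes that differed between granulosa pools, 57.2% were lowest and 30.5% highest in pool 3.

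**Figure D3:**
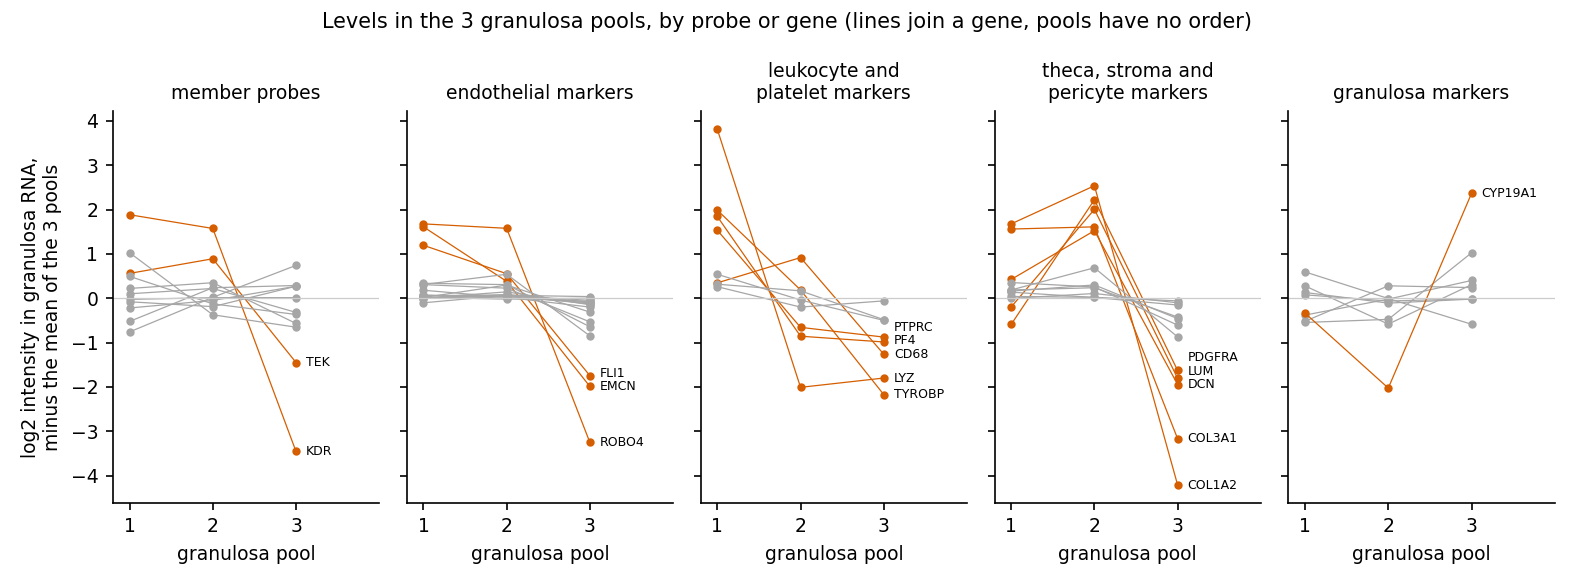
Level of each tested member probe or marker gene in granulosa pools 1 to 3, given as its log2 intensity minus its own mean over the pools. Lines join a gene and the pools have no order. Genes with a range of at least 2 log2 units are orange and named, and those among members, endothelial and stromal markers are lowest in pool 3, while CYP19A1 is highest there.

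Few probes met a narrow rule modelled on the KDR ratios. The rule was a ratio of -2 or below in replicates 1 and 2 with a size under 0.5 in replicate 3. It was set after the KDR and TEK values were seen. Of 35050 tested probes 102 met it (0.291%), and 79 named genes met it by their brightest probe. ROBO4 and COL1A2, also low in granulosa pool 3, fail it by their replicate 3 ratios of 1.36 and 3.99. A low level in pool 3 was thus wider: 1902 probes differed between granulosa pools and were lowest there. Across the 6 arrays, and among 12469 candidate genes, the profiles nearest to KDR by root mean square difference of log2 ratios were those of BGN, CALCRL and ALDH1A1 (0.32, 0.33 and 0.52). BGN encodes a matrix proteoglycan and CALCRL the adrenomedullin receptor. For TEK they were MICAL1, FAM171A1 and S100B (0.20, 0.23 and 0.25). These lists were made after the values were seen. For VEGFA EMBV3_32036 the nearest were GSTA3, C10H14orf93 and FOXK2 (0.12, 0.12 and 0.15), and for VEGFC LTBP1, BTG3 and SELENOW (0.18, 0.22 and 0.26). With 6 arrays from 3 pairs of pools, nearness describes these pools and no more.

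The wider pathway was read from 6 lists with 52 genes, of which 48 are on the array and 43 were tested, one probe for a gene. Higher in granulosa RNA were 5 genes (11.6%), beside 7.82% of all 13229 tested genes, and higher in blastocysts 1 gene (2.33%), beside 5.85%. At an unadjusted p under 0.05 there were 17 (39.5%), beside 38.7% of all tested genes. The median log2 ratio was -0.24, beside -0.02 over all genes. Between granulosa pools 9 of the 43 differed, beside 9.49% of all tested probes. A share over genes by brightest probe was not computed for that test, so the count and the share are of unlike sets. Without replicate 1, and likewise without replicate 2, no gene on the array passed, and the 6 pathway genes had adjusted p-values of 0.0567 to 0.172 in those fits, with 13 and 10 pathway genes at an unadjusted p under 0.05. Without replicate 3, 7 passed in granulosa and 0 in blastocysts.

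Other ligands and receptors of the VEGF system gave 0 of 7 genes past the test in either direction, with 2 at an unadjusted p under 0.05. Placental growth factor, PGF, a ligand of FLT1, came nearest by size, with granulosa levels of 8.27, 10.30 and 11.64, and ratios of -1.14, -3.32 and -4.50 (mean -2.99 ± 1.70, SD, n = 3; adjusted p = 0.0839). It was named after its values were seen, and its granulosa level differed between pools (adjusted p = 6.43e-06), highest in pool 3 as for VEGFA. With the replicate number as a block the adjusted p of PGF was 0.00416, and 0.00904 with a dye term. The fit without a dye term took same-numbered arrays as uncorrelated over all tested probes. The PGF values come from the fit over genes, where that estimate was not recorded. VEGFB stood at -0.34 ± 0.24 (SD, n = 3), the lymphatic VEGFC receptor FLT4 at -0.08 ± 0.05 and the NRP1 relative NRP2 at -0.16 ± 0.04.

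Among the other genes of the angiopoietin system 1 of 3 tested passed. ANGPTL2, a secreted angiopoietin-like protein that does not bind TEK, was 9.81-fold higher in granulosa, with ratios of -3.10, -3.40 and -3.38 (mean -3.29 ± 0.17, SD, n = 3; adjusted p = 0.00553), and its other tested probe gave -3.78. Of the 7 tested genes of oxygen sensing, HIF1A, the hypoxia-inducible factor subunit that induces VEGFA, passed as at least 41.3-fold higher in granulosa (mean -5.37 ± 0.20, SD, n = 3; adjusted p = 0.00542). Its raw signal was over 30000 on all 6 arrays near the scanner's upper limit, so the fold is a lower bound, and another of its probes gave -1.88. With spots over 30000 left out this probe of HIF1A could not be tested, and 4 pathway genes were higher in granulosa.

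Signalling genes downstream of the receptors gave 0 of 11, with 3 at an unadjusted p under 0.05. The adaptor SHB stood at 1.08 ± 0.50 (SD, n = 3; adjusted p = 0.0618). Of 10 tested inhibitors of angiogenesis 1 passed in each direction. SPRY1, an inhibitor of receptor tyrosine kinase signalling, was 18.2-fold higher in granulosa (mean -4.19 ± 1.08, SD, n = 3; adjusted p = 0.0223), although its other probe gave -0.16. SPRED1, a related inhibitor, was 2.18-fold higher in blastocysts (1.12 ± 0.37, SD, n = 3; adjusted p = 0.0368), which rests on its brightest probe, since the mean over its probes was 0.40 (adjusted p = 0.0667). The matrix inhibitors THBS1 and ADAMTS1, named after their values were seen, also had replicate 3 nearest to 0. THBS1 had ratios of -4.22, -4.71 and -1.10 (adjusted p = 0.0882) and ADAMTS1 of -3.94, -4.51 and 0.37 (adjusted p = 0.209). Both passed without replicate 3 (adjusted p = 0.0339 and 0.0342) and when replicate number was a block (0.00385 and 0.0346). With a dye term added to the block THBS1 passed (0.00967) and ADAMTS1 did not (0.0567). Without that term the block took same-numbered arrays as uncorrelated over all tested probes. In the fit over genes, used for THBS1 and ADAMTS1, that estimate was not recorded.

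Notch genes of vessel sprouting gave 2 of 5. DLL4, the Notch ligand of endothelial tip cells, was 2.41-fold higher in granulosa (mean -1.27 ± 0.22, SD, n = 3; adjusted p = 0.0146), and HEY2, a Notch target, 5.61-fold higher (mean -2.49 ± 0.78, SD, n = 3; adjusted p = 0.0305). HEY2 was brightest in granulosa pool 3, at 10.82 beside 9.66 and 9.57. The ligand JAG1 had ratios of -2.37, -3.45 and 1.10 (adjusted p = 0.356) and granulosa levels of 11.77 and 12.53 in pools 1 and 2 and 7.86 in pool 3. The brightest probe was used for JAG1, and over all its probes the mean was -0.54.

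**Figure D4:**
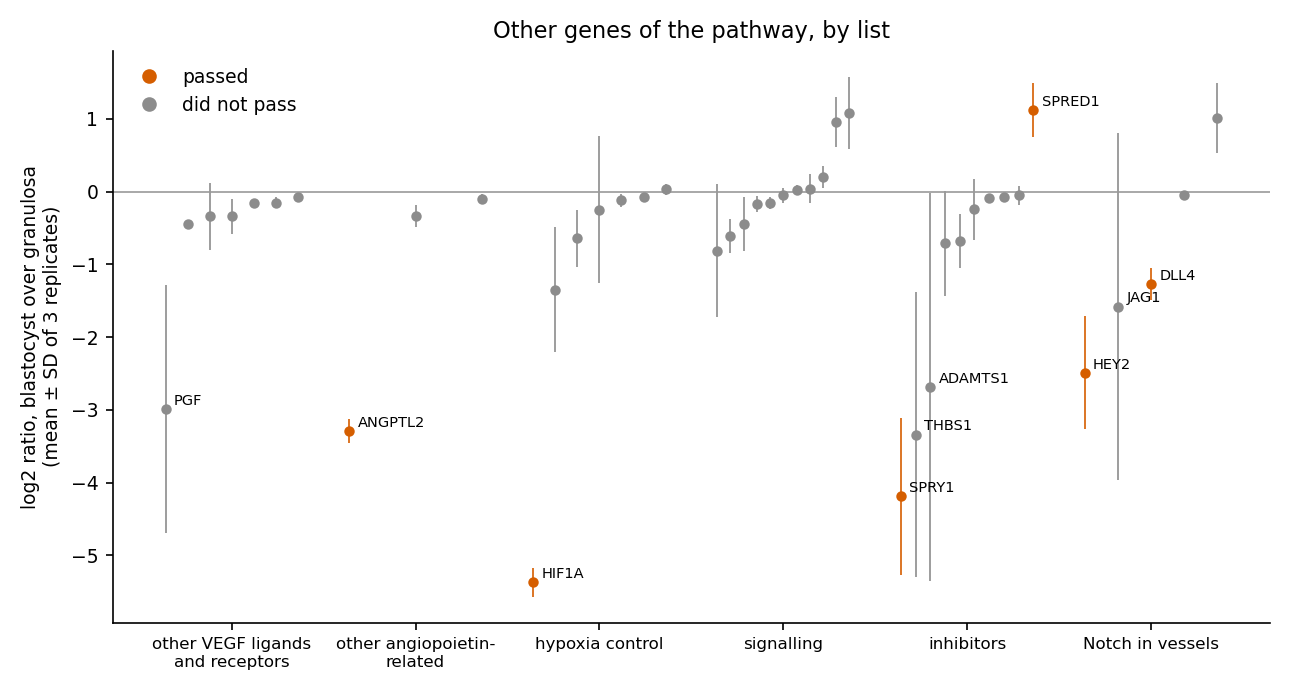
Log2 ratio of blastocyst over granulosa RNA (vertical axis, log2 units) for the tested genes of the 6 pathway lists (axis across), points showing the mean and bars the SD of 3 replicates. Genes that passed are orange, with HIF1A, SPRY1, ANGPTL2, HEY2 and DLL4 below 0 and SPRED1 above 0, and the other named genes (PGF, THBS1, ADAMTS1, JAG1) have wide bars.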

How the data were processed

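Per the labels' protocols, RNA pools were amplified as antisense RNA and coupled to Cy3 or Cy5. The deposited intensity columns used here hold, per the file headers, the raw mean and the median local background of each spot at 532 nm and 635 nm, before any correction. Deposited net intensities served as an alternative. The authors' value table is a score with no stated unit. It equals one channel's log2 net intensity divided by the other's, for 100% of values within 1e-04, with column medians of -0.998, -0.998 and -1.00 on arrays titled blastocyst and 1.00, 0.999 and 1.00 on those titled granulosa. Its scale, centring and sign were thereby resolved, and it was not used for results. One file lists 635 nm ahead of 532 nm, and columns were read by wavelength name.

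The raw values were corrected by normexp (offset 50), normalized within arrays by loess with control spots at weight 0, and turned to read blastocyst over granulosa (R 4.3.3, limma 3.58.1). Levels are log2 intensities after Aquantile in addition. A probe was tested if above background on at least 3 of 6 arrays in either cell type, which kept 35050 of 43794 probes (80.0%). limma's lmFit and eBayes tested the mean of 3 replicates against 0, with 3.35 degrees of freedom in total. The limma models were first tested on simulated data. The titles number the arrays, and deviations of same-numbered arrays correlated at 0.85, 0.90 and 0.93 across probes, those of different number at -0.59 to -0.20, so the numbers were read as pairs. The precision of all values is limited by the number of arrays.

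Gene symbols came from the platform annotation, updated through the RefSeq table of ARS-UCD2.0 (21790 probes named, 22004 unnamed, 198 symbols unmatched). The files name no genome build, so no coordinates are given. For a gene with several probes, the brightest was used in gene counts. Genes named were all members, list genes that passed (up to 4 in a list), markers that passed or define a cell type (up to 5 in a list), and the 3 nearest profiles of VEGFA and VEGFC. Further genes were named after their values were seen: ROBO4, FLI1, CLEC14A, COL1A2, COL3A1, LYZ, AMH, NR5A1, NR5A2, PGF, THBS1, ADAMTS1, JAG1, SHB, VEGFB, FLT4, NRP2 and the profiles nearest to KDR and TEK. The members and lists were chosen with earlier results of these data known. Alternatives covered background correction, normalization, the filter, bright spots, replicates, the block, dye and the probe of a gene. Figures used Python 3.11.15 with matplotlib 3.10.9.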

Additional observations from a re-analysis of the deposited data

Results flagged for a closer look

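For 3 tested member probes the ratio followed the dye as well as the cell type. In the fit of 6 ratios on replicate number and dye, the dye term had an adjusted p of 0.0381 for NRP1 EMBV3_11450 (mean log2 ratio -2.47 with blastocyst RNA in Cy3 and -2.04 with it in Cy5), 0.0449 for VEGFC (-3.25 and -2.83) and 0.0272 for ANGPT1 (-0.88 and -0.57). The direction was the same in both orientations for each of these. A dye term with an adjusted p under 0.05 was found for 49.9% of all tested probes. The NRP1 probe EMBV3_10439, not above background, had a mean ratio of -0.31 with blastocyst RNA in Cy3 and 0.14 with it in Cy5, all 3 arrays of each orientation lying on the same side of 0. That difference was not tested.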

How the results depend on the processing

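The 4 member probes that passed kept their direction under each alternative that tested them, which leaves out the strictest filter. When a replicate was left out, member probes higher in granulosa numbered 0 to 5 and member genes 0 to 4, pathway genes 0 to 7 in granulosa and 0 to 0 in blastocysts, and all probes 0 to 1469 in granulosa and 0 to 1188 in blastocysts. The lowest counts came without replicate 2, where limma passed no probe while 8513 probes and 5 member probes had an unadjusted p under 0.05. Member probes that differed between replicates numbered 1 to 5, and between granulosa pools 1 to 4, when a replicate was left out. Requiring signal above background in both cell types on all arrays removed the 4 passing probes from the test, leaving 0 member probes and 0 member genes and 3 pathway genes higher in blastocysts. With the replicate block, from the pairing of numbers, 5 member genes were higher in granulosa without a dye term and 5 with one, as were 9 and 8 pathway genes, and 3 and 3 pathway genes were higher in blastocysts. Counts over all probes rose too, to 2598 and 2508 in granulosa (1819 without the block) and 2343 and 2323 in blastocysts (1734). Among member probes the block changed the calls of KDR (without a dye term) and TEK. Over all tested probes the estimated correlation between same-numbered arrays was 0 without a dye term and 0.66 with one. For probes the block without a dye term thus treats the 6 arrays as independent, although they come from 3 replicates. The estimate was not recorded for the fits over genes. Pathway genes higher in blastocysts numbered 0 without background correction, 3 with net intensities, 4 with median centring, 0 with blastocyst RNA in Cy3 alone, 4 with it in Cy5 alone and 0 by the mean of probes. Without background correction 3 member probes differed between replicates, and with median centring 0 had a dye term. Sign changes were limited to PECAM1, at -0.01 with net intensities, -0.06 without replicate 3 and -0.11 with blastocyst RNA in Cy3 alone, and VEGFA EMBV3_32036, at -0.49 to 0.04 when a replicate was left out. Fewer replicates or probes enter some of these fits, and for the other changes the cause was not tested. Low signal limits FLT1, PECAM1 and CDH5.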
